A study of Mus musculus with 2 samples.

Results

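Expression of 10 genes of chromosome condensation, sister chromatid cohesion, the mitotic spindle and cytokinesis (Ncapg, Ncapg2, Esco2, Kif14, Kif15, Kif18b, Cenpe, Spag5, Ckap2l and Cep55) was compared between mesoangioblast clones D351 and D16. The genes were found as the probe sets of an Affymetrix MG-U74B array for which the platform annotation gives exactly 1 gene symbol, that symbol being one of these 10. All 10 were measured, among 4922 measured genes in all. Clones D351 and D16 are cultures of mesoangioblasts, vessel-associated progenitor cells, which were grown from C57BL6 mouse embryos of embryonic day 9.5 whose dorsal aorta had been held in explant culture for 5 days. Both were cloned at limiting dilution on mitomycin C-treated embryonic mouse fibroblasts in RPMI with 20% fetal calf serum and then passed to gelatin-coated dishes. Each clone is 1 culture on 1 array of total RNA, so no difference below could be set against a spread between cultures, and no test was possible. The 10 genes were chosen with their difference between these arrays already known, so their own values are a description.

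When a cell enters mitosis, condensin complexes compact the replicated chromosomes, while cohesin rings, locked onto the DNA in S phase, keep the sister chromatids together until anaphase. Kinesins, motors that walk along or shorten microtubules, build the bipolar spindle, carry chromosomes to its equator and organise the central spindle. At the end of division the remains of the central spindle form the midbody, where the membrane between the daughter cells is cut. Transcripts of many of these proteins are made mainly late in the cell cycle, so bulk levels in a culture depend on how many cells are dividing as well as on transcript per cell, and the arrays cannot tell these apart.

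Late cell cycle promoters are known for a short element near the start of transcription, the cell cycle genes homology region (CHR), often written TTTGAA, and for CCAAT boxes, which bind NF-Y. RefSeq promoter windows (GRCm38.p6, 250 bases before to 50 after an annotated start) were matched by symbol for 9 of the 10 genes; Esco2 was not matched. The stretches below show where TTTGAA, read on either strand (TTCAAA in the gene's direction when it lies on the other), stands in capitals. Each runs 5′ to 3′ in the gene's direction over 70 bases from position -60 to position 10, the start being position 1. The stretch of Kif14 was taken further upstream, from position -248 to position -179, because its match lies there.
Ncapg, chr5:45669865-45669934, plus strand: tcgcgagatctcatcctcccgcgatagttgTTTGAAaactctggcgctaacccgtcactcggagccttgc
Ncapg2, chr12:116405376-116405445, plus strand: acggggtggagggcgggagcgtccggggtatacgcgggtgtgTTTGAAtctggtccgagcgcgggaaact
Kif14, chr1:136467600-136467669, plus strand: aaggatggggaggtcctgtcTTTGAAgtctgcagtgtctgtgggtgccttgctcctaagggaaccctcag
Kif15, chr9:122951021-122951090, plus strand: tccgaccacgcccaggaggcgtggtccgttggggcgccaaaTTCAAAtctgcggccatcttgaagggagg
Kif18b, chr11:102925115-102925184, minus strand: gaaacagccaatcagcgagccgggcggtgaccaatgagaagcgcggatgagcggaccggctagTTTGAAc
Cenpe, chr3:135212503-135212572, plus strand: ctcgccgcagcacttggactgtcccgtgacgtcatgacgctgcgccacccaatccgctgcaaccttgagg
Spag5, chr11:78301531-78301600, plus strand: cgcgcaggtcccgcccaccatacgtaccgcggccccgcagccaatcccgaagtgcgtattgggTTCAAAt
Ckap2l, chr2:129297203-129297272, minus strand: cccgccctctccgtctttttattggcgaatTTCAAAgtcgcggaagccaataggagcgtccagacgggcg
Cep55, chr19:38054981-38055050, plus strand: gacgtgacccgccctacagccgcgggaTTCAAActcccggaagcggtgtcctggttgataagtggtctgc

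TTTGAA occurred in the windows of 8 of the 9 genes, and Cenpe had no match. Of all 32851 RefSeq promoter windows, 17.9% hold these letters on either strand, and of 27025 genes with a window 20.2% do. Among measured genes other than the 10, the share was 13.6% of 3989. The matches clustered near the start: Ncapg and Ckap2l had one at position -30, Kif15 at -19 and Ncapg2 at -18, while Spag5 and Kif18b had one at position 4, just after the start. Cep55 has 2 annotated starts, and the same match lies at position -33 of one and at position 25 of the other. The one match of Kif14, at position -228, lay far upstream, as did a second match of Kif15 at position -234, and Ckap2l had a second match at position 42. Within a window from position -40 to position 10, set after these positions were seen, 7 of the 9 genes had a match, against 2.9% of the genes with a window and 1.7% of the other measured genes. In the mitotic and cell cycle lists described below, the share in that window was 12.8% of 78 genes, so such a match is not particular to the 10. These matches are letters in a window and no evidence that a protein binds there.

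CCAAT, on either strand, was present in 6 of the 9 windows (Kif14, Ckap2l, Cenpe, Ncapg, Spag5 and Kif18b), against 41.1% of all genes and 42.9% of the other measured genes. Spag5 and Kif18b had 2 matches each and Ckap2l had 3. The related element TTCGAA was in 0 of the 9, against 1.8% of all genes and 2.66% of the other measured genes. Of the letters resembling E2F sites, TTTNGCGC stood in Kif15 and Ncapg2, TTTCCCGC in Ncapg and Ncapg2, and GGCGGGAA in Ncapg2, against 1.57%, 1.24% and 2.52% of all genes and 2.96%, 2.23% and 4.54% of the other measured genes. In the mitotic and cell cycle lists described below, CCAAT was in 62.8% of 78 genes with a window and TTCGAA in 11.5%. Of the E2F-like letters, TTTCCCGC was in 12.8% of the 78, GGCGGGAA in 10.3% and TTTNGCGC in 3.85%. In Ncapg2 the GGCGGGAA match, from position -250, overlaps a TTTCCCGC match on the other strand, from position -249.

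**Figure D1:**
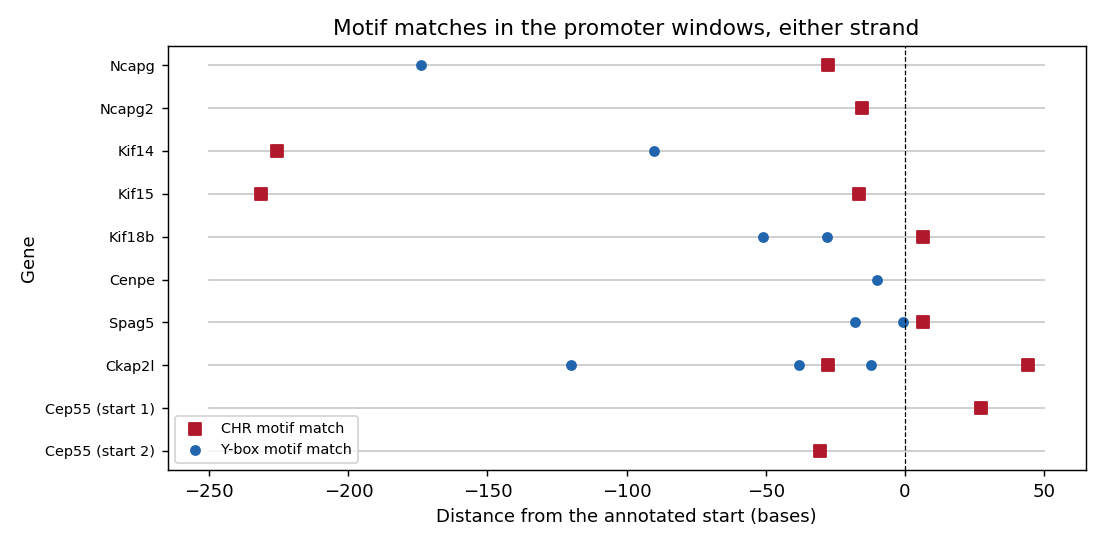
Matches to the CHR letters (squares) and to the CCAAT box, drawn as Y-box (circles), on either strand of the promoter windows of 9 genes, against distance in bases from the annotated start (dashed line). Squares lie within 60 bases of the start in every gene but Kif14 and Cenpe, with a further match upstream in Kif15, and Cenpe has none.

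All 10 genes had a lower signal in D351. The deposited values are intensities on a linear scale, and values under 16.8, the median over both arrays, were raised to that floor before a ratio was taken. At least 2-fold lower in D351 were 8 of the 10, against 8.57% of all measured genes. At least 3-fold lower were the same 8, against 2.78% of all measured genes, and 7 were at least 4-fold lower, against 1.36%. With a 1.5-fold rule Kif18b joined them, making 9, against 20.4% of all genes. The median log2 ratio of D351 over D16 was -2.10 (4.28-fold lower in D351), and the median of all measured genes was -0.01. Since the genes were picked from this difference, nothing is read from these shares.

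Signals of the 10 genes lay between 16.6 and 80 in D351 and between 38.9 and 353.1 in D16. Genes whose mean signal lay in the range of the 10 (32.9 to 208.9) were at least 2-fold lower in D351 in 10.2% of 3000 cases, and their median log2 ratio was -0.02. Of the 10 genes, 9 reached the floor on both arrays. Esco2 reached it in D16 alone and could therefore only come out lower in D351.

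**Figure D2:**
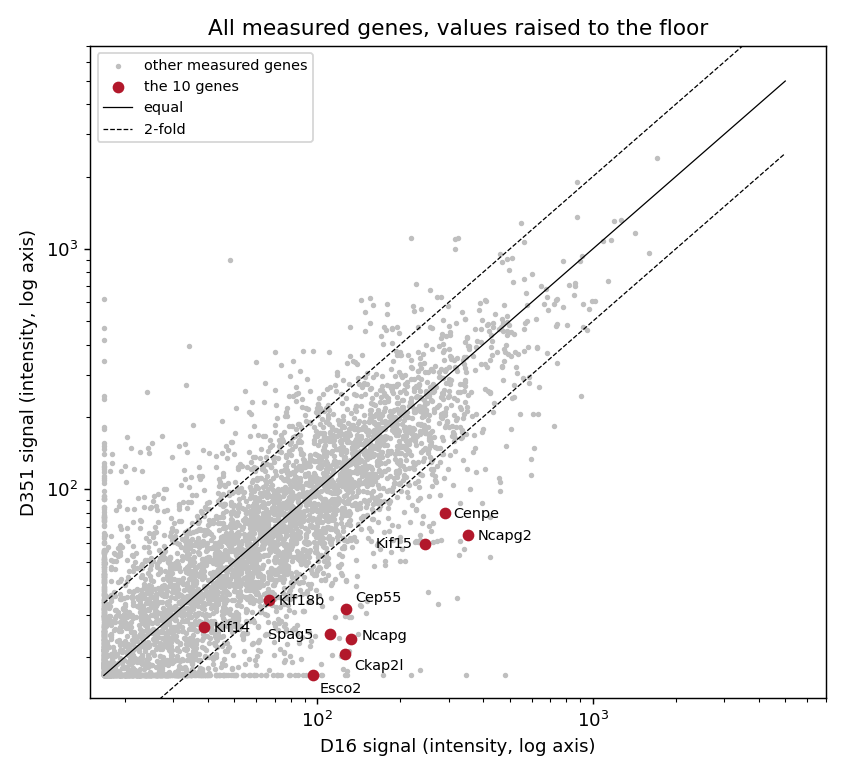
Signal in D351 (vertical, log axis) against D16 (horizontal, log axis) for all 4922 measured genes, with values raised to the floor of 16.8. Solid and dashed lines mark equal signals and a 2-fold difference. Of the 10 genes, in red, 8 lie below the lower dashed line, Kif18b lies almost on it and Kif14 lies between the lines.

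Chromosome condensation was represented by a pair of related subunits. Ncapg encodes the HEAT-repeat subunit CAP-G of condensin I, which reaches the chromosomes once the nuclear envelope has broken down. Its signal was 23.9 in D351 and 132.9 in D16, 5.56-fold lower in D351. Ncapg2 encodes the matching subunit of condensin II, which is nuclear already in interphase. Its brighter probe set read 64.7 in D351 and 353.1 in D16, 5.46-fold lower in D351. The ratios of these subunits were within 0.03 of each other on the log2 scale (-2.48 and -2.45). A second Ncapg2 probe set, with 11.1 in D351 and 14.5 in D16, was under the floor on both arrays and gives no ratio.

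The rest of condensin was measured in part. Ncapd3, a HEAT-repeat subunit of condensin II, read 68.5 in D351 and 144 in D16 (2.10-fold lower in D351). Ncapd2, its counterpart in condensin I, read 60.2 in D351 and 92.9 in D16 (1.54-fold lower). Both partners were thus lower in D351, by less than Ncapg and Ncapg2. The core ATPase Smc2 and the kleisin Ncaph2 were on the array but under the floor in both clones.

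Sister chromatid cohesion was represented by Esco2, the acetyltransferase that modifies the Smc3 subunit in S phase and so stabilises cohesin on replicated DNA. Its signal was 16.6 in D351, just under the floor, and 96.4 in D16, which is at least 5.74-fold lower in D351. Another Esco2 probe set read 2.5 in D351 and 3.9 in D16, both under the floor. The related acetyltransferase Esco1, which acts also outside S phase, read 15.2 in D351 and 29.1 in D16, at least 1.73-fold lower.

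Of 9 measured genes of cohesin and sister separation, 1 was lower in D351 by 2-fold or more and 0 were higher by that much, against 8.57% and 9.49% of all measured genes, and the median log2 ratio was -0.36. The 1 gene was Espl1, the separase that cleaves cohesin at anaphase, with 82.9 in D351 and 229 in D16 (2.76-fold lower). The ring subunit Smc1a read 374 in D351 and 481.6 in D16 (log2 -0.36, with 0.20 on another probe set). Sgo2a, which protects centromeric cohesion, had a log2 ratio of at most -0.48. Log2 ratios were -0.47 for the release factor Wapl (with -0.06 on another probe set), -0.14 for the loader subunit Mau2 and -0.13 for the loader Nipbl. They were 0.13 for the subunit Stag1 (with -0.30 on another probe set) and 0.65 for Pds5b, a regulator bound to the ring.

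The 4 kinesins ranged from 1.45-fold to 4.15-fold lower in D351. Kif15, a plus-end-directed motor that bundles spindle microtubules and helps to keep the spindle bipolar, read 59.1 in D351 and 245.3 in D16 on its brightest probe set (4.15-fold lower in D351). This probe set ends in _f, a design that related transcripts can share. A probe set ending in _g read 39.5 in D351 and 201.9 in D16 (5.11-fold lower). The plain probe set made from the same sequence record read 16.1 in D351 and 138.8 in D16, at least 8.26-fold lower. A Kif15 probe set ending in _r, a design made under relaxed rules, read 4.3 in D351 and 5 in D16 and gives no ratio. The measured Kif15 probe sets therefore lay in the same direction, with log2 ratios of -2.05, -2.35 and at most -3.05.

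Cenpe, the kinetochore motor that carries unaligned chromosomes to the spindle equator, read 80 in D351 and 290.2 in D16, 3.63-fold lower in D351. Kif18b, which limits the length of astral microtubules from their plus ends, read 34.6 in D351 and 66.9 in D16, 1.93-fold lower and so just short of 2-fold. Kif14, a motor of the central spindle and midbody that binds Prc1 and citron kinase, read 26.8 in D351 and 38.9 in D16, 1.45-fold lower. Kif14 and Kif18b each rest on 1 probe set.

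The differences between the kinesins were set against the spread between probe sets of one gene, the one measure of error the arrays offer. For 1113 genes that had 2 or more measured probe sets, the log2 ratios of the brightest pair differed with an SD of 0.71. Kif14 and Kif15 differed by 1.52 in log2 ratio, 2.13 times this SD, and Kif14 and Cenpe by 1.32, 1.86 times. Kif18b and Kif15 differed by 1.10 (1.55 times) and Kif18b and Cenpe by 0.91 (1.28 times). Kif14 and Kif18b differed by 0.41 and Cenpe and Kif15 by 0.19, both less than this SD. The SD covers probe design on these arrays and not the spread between cultures.

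Kinesins with roles outside mitosis were listed for reference, and no difference from the 4 mitotic ones, which were chosen for theirs, was tested. Of 10 measured transport and other kinesins, 0 were lower in D351 by 2-fold or more and 2 were higher by that much, against 8.57% and 9.49% of all measured genes. The median log2 ratio was -0.02, and it was above 0 with the mean (0.26) or with the floor at the 75th percentile (0.35). Kif21b read 124.1 in D351 and 37.3 in D16 (3.33-fold higher, but log2 -0.19 on another probe set). Kif3a, a motor of transport within cilia, read 134.6 in D351 and 47.2 in D16 (2.85-fold higher, with log2 ratios of 0.32 and 1.36 on other probe sets). The conventional kinesin heavy chain Kif5b, on an _f probe set, read 491.7 in D351 and 569.3 in D16 (log2 -0.21). Of the further mitotic kinesins listed, Kif18a and Kif20b were on the array, both under the floor in both clones.

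**Figure D3:**
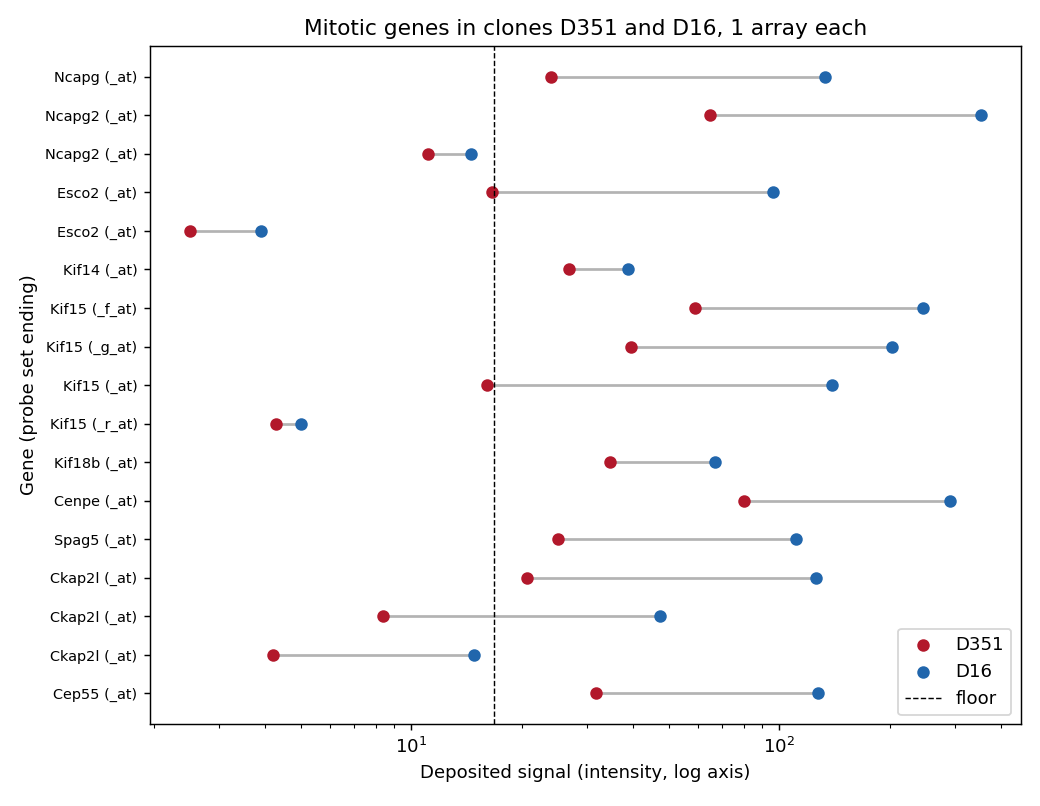
Deposited signal (log axis) in D351 (red) and D16 (blue) for each of the 17 probe sets of the 10 genes, 1 array per clone, with the ending of the probe set beside the gene. The red point lies left of the blue one in all 17 probe sets, and the 4 probe sets wholly left of the dashed floor of 16.8 gave no ratio.

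Spindle proteins without motor activity were among the genes with the larger differences. Spag5 encodes astrin, which stabilises the attachment of kinetochores to spindle microtubules and the spindle poles. Its signal was 25.1 in D351 and 111 in D16, 4.42-fold lower in D351. Ckap2l, a microtubule-associated protein of the spindle and its poles, read 20.6 in D351 and 126.1 in D16, 6.12-fold lower. A second Ckap2l probe set read 8.4 in D351 and 47.3 in D16, at least 2.82-fold lower, and another, with 4.2 in D351 and 14.8 in D16, was under the floor on both arrays. The ratios of Spag5 and Ckap2l differed by 0.47 on the log2 scale, less than the spread between probe sets.

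Cytokinesis was represented by Cep55, which gathers at the midbody and brings in the ESCRT machinery that cuts the membrane. Its signal was 31.7 in D351 and 127 in D16, 4.01-fold lower in D351. Cep55 and the midbody kinesin Kif14 thus differed by 1.46 on the log2 scale, 2.06 times the SD between probe sets, whereas Cep55 and Spag5 differed by 0.14. Citron kinase (Cit), a midbody partner of Kif14, read 62.8 in D351 and 152.6 in D16 (2.43-fold lower). It was the 1 gene of 7 measured cytokinesis and midbody genes at least 2-fold lower in D351; 0 were at least 2-fold higher. These counts stand against 8.57% and 9.49% of all measured genes, and the median log2 ratio of the 7 was -0.13. Prc1, which bundles the central spindle, read 9.9 in D351 and 25 in D16 (at least 1.49-fold lower). The passenger complex scaffold Incenp read 78.2 in D351 and 64.3 in D16 (log2 0.28, with -0.35 on another probe set).

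By step, then, the condensin pair, Esco2, Ckap2l and Spag5 had log2 ratios from -2.61 to -2.14, and Kif15, Cep55 and Cenpe from -2.05 to -1.86. Kif18b (-0.95) and Kif14 (-0.54) had the smallest differences of the 10. The low D16 signal of Kif14 limited how far its ratio could fall. The first 8 genes span 0.75 on the log2 scale, 1.06 times the SD between probe sets, and Kif18b lies 1.28 times that SD from Cenpe, so the order gives no ranking of the steps of mitosis. All 17 probe sets had a lower deposited value in D351, the 4 under the floor included, against 51.4% of all probe sets with 1 symbol. Since the genes were picked from this difference and the 4 give no ratio, nothing is read from this count.

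Further genes of the spindle went both ways. Among 18 measured spindle and centrosome genes 4 were at least 2-fold lower in D351 and 0 at least 2-fold higher. All measured genes had 8.57% and 9.49%. The median log2 ratio was -0.03, but 0.22 when the floor had to be reached in both clones, -0.47 if the floor was set to the 25th percentile, and -0.31 for the mean of the list as well as for the median over probe sets. The centrosomal Cdk5rap2 read 29.5 in D351 and 116.1 in D16 (3.94-fold lower), and the centriolar scaffold Cep192 read 42 in D351 and 106.6 in D16 (2.54-fold lower). Tpx2, the activator of Aurora A on spindle microtubules, read 73.4 in D351 and 165.7 in D16 (2.26-fold lower, log2 -1.17 and -1.32 on another probe set). Nusap1, which bundles microtubules near chromosomes, was at least 2.21-fold lower. It reached the floor in D16 alone and could only come out lower in D351. When both clones had to reach the floor, 3 of 13 spindle and centrosome genes were at least 2-fold lower. The plus-end protein Clasp1 was near equal, with 250.2 in D351 and 254.5 in D16. Knstrn, which works in a complex with astrin, had log2 ratios of 0.27 and -1.29 on its probe sets.

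Kinetochore genes were mostly lower in D351. Of 18 measured, 17 had a log2 ratio below 0, 6 were at least 2-fold lower and 0 at least 2-fold higher, and the median was -0.83. Of all measured genes 50.7% were below 0, 8.57% at least 2-fold lower and 9.49% at least 2-fold higher. Cenps (11 in D351 and 22 in D16) reached the floor in D16 alone and could only come out below 0. Kntc1, of the complex that brings dynein to kinetochores, read 20.2 in D351 and 79.5 in D16 (3.94-fold lower), and Spc25, of the Ndc80 complex, read 43.7 in D351 and 139.1 in D16 (3.18-fold lower). The centromere proteins Cenph (2.57-fold, an _f probe set), Cenpm (2.36-fold), Cenpu (2.24-fold) and Cenpw (2.20-fold, an _i probe set) were also lower. Cenpf, like Cenpe a large protein of the outer kinetochore, read 77.3 in D351 and 150.8 in D16, 1.95-fold lower.

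Regulators of mitotic entry and of the checkpoint were lower in D351 in part. Of 15 measured genes 4 were at least 2-fold lower and 0 at least 2-fold higher, against 8.57% and 9.49% of all measured genes, and the median log2 ratio was -0.63. These 4 were the checkpoint kinase-like protein Bub1b (29.5 in D351 and 132.2 in D16), the phosphatase Cdc25b (50.5 in D351 and 175.6 in D16), the transcription factor Foxm1 (47.8 in D351 and 160.8 in D16) and the APC/C inhibitor Fbxo5 (34.7 in D351 and 94.4 in D16). Lin54, the subunit of the MuvB complex that contacts the CHR, read 50.5 in D351 and 90.3 in D16 (1.79-fold lower), and its partner Lin37 read 42.8 in D351 and 57.2 in D16. Mybl2, which joins MuvB late in the cycle, was under the floor on both arrays, with 8.1 in D351 and 13.3 in D16.

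DNA replication genes, which act in S phase, were lower as well. All 8 measured were below 0, 5 of them by 2-fold or more, against 50.7% and 8.57% of all measured genes. The median log2 ratio was -1.14. Gins1, of the replicative helicase, read 5.5 in D351 and 56.9 in D16 (at least 3.39-fold lower), and the checkpoint mediator Clspn read 25.9 in D351 and 80.8 in D16 (3.12-fold lower). The helicase Recql4 (at least 2.71-fold), the origin recognition subunit Orc3 (2.25-fold) and the polymerase Pole (2.15-fold) completed the group. Gins1 and Recql4 reached the floor in D16 alone and could only come out lower in D351. When both clones had to reach the floor, 3 of 6 replication genes were at least 2-fold lower, with a median log2 ratio of -0.92. Genes of G1 cyclins, CDK inhibitors and quiescence had a median log2 ratio of -0.07 over 12 measured. Of these 1 was at least 2-fold lower and 0 at least 2-fold higher, against 8.57% and 9.49% of all measured genes. The 1 gene was E2f7, a repressor of the E2F family (37.4 in D351 and 78.7 in D16). The quiescence-associated Btg1 read 28 in D351 and 20 in D16 (log2 0.49).

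**Figure D4:**
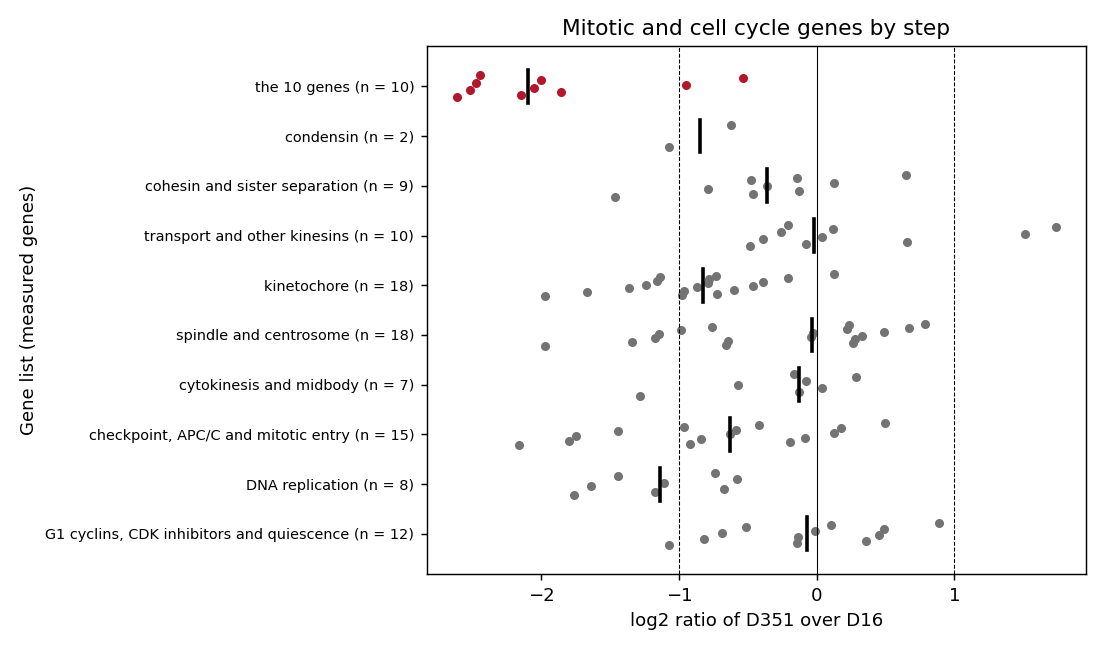
Log2 ratio of D351 over D16 for each measured gene of the 10 and of 9 further lists, with the median as a black bar and dashed lines at 2-fold. The 10 genes, chosen for this difference, have their median at -2.10, and the list medians run from -1.14 for DNA replication to -0.02 for transport and other kinesins.

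TTTGAA was also counted in the genes of these lists. Of 78 listed genes with a window, 30.8% held it. The share was 8 of the 17 listed genes at least 2-fold lower in D351 (47.1%) and 16 of the other 61 (26.2%). Over all measured genes other than the 10, it was 19.4% of 325 genes at least 2-fold lower in D351 and 13.3% of 368 genes at least 2-fold higher. These are shares without a test.

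The genes with signals nearest to the median of the 10 on both arrays (29.1 in D351 and 126.5 in D16) were Tbl3, Sdc4, Bub1b, Cdk5rap2 and Mcrip2, at distances of 0.03 to 0.25 in log2 units. This likeness rests on 2 arrays and carries the response of each probe set.

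Markers of several cell types were read as well, and some of them differed between the clones while others did not. The feeder layer consisted of embryonic fibroblasts, and 7 of their markers were on the array. Of these 6 were measured, with signals that summed to 2454.2 in D351 and 997.2 in D16. At least 2-fold higher in D351 were 5 of the 6, against 9.49% of all measured genes. The other one, Tcf4, was 2.65-fold lower in D351 (205.6 in D351 and 544.8 in D16, with a log2 ratio of -0.59 on another probe set). Aspn (177.4 in D351 and 3.6 in D16) and Col5a2 (60.1 in D351 and 12.4 in D16) reached the floor in D351 alone. Both could therefore only come out higher in D351. Pi16 was under the floor on both arrays. Of 5 progenitor markers on the array, Alcam, Gata4 and Cspg4 were at least 2-fold lower in D351, against 8.57% of all measured genes. Gata4 (0.5 in D351 and 54.3 in D16) reached the floor in D16 alone and could only come out lower. Cd44 was bright in both (1092.5 in D351 and 1164.5 in D16) and Eng was under the floor on both. The label of the cells is therefore only partly covered by measured markers. Smooth muscle markers (3 measured of 7 on the array) summed to 1541.7 in D351 and 932.8 in D16. Mylk read 148.5 in D351 and 21.1 in D16 (7.04-fold higher, with log2 1.60 on another probe set). Cald1 read 1357.6 in D351 and 874.9 in D16 (1.55-fold higher, with log2 0.56 and 0.67 on other probe sets). Myh11 read 35.6 in D351 and 36.8 in D16. Endothelial markers (2 of 4) summed to 63.2 in D351 and 65.1 in D16 but went opposite ways, with Nrp2 at 18.7 in D351 against 54.8 in D16 (2.93-fold lower) and Flt1 at 44.5 in D351 against 10.3 in D16 (higher by at least 2.65-fold). The blood marker Runx1 read 61.1 in D351 and 45.4 in D16. Their part in the results was not tested.

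The arrays were close in scale, with signals summing to 646285 in D351 and 653854 in D16 and 2% trimmed means that matched within 5%. Of 9 added bacterial and phage control probe sets at the floor, 8 were lower in D351, with a median 1.44-fold lower, and the part of this difference was not tested. The 10 genes lie on 9 chromosomes, whose median log2 ratios ran from -0.12 to 0.17. With its chromosome's median taken off, each of the 10 was between -2.51 and -0.64.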

How the data were processed

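The authors deposited 1 intensity for each probe set on each array, not on a log scale; the software, background correction and presence calls are not given in the sources used here. The 2% trimmed means matched within 5%, so the values were used as deposited. Of 12477 probe sets, 66 controls were left out, and 10581 of the others had exactly 1 gene symbol in GEO's platform annotation, updated through gene identifiers to RefSeq (GRCm38.p6); 10550 matched and 0 were renamed. Values were raised to the pooled 50th percentile (16.8), log2 ratios are D351 over D16, and ratios where only 1 clone reached the floor are bounds. A probe set under the floor on both arrays has no ratio. A gene is represented by its brightest probe set. With 1 array per clone no p-value was computed.

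The members and lists were chosen with earlier results of these data known. Named were all 10 members, up to 6 genes past 2-fold per list, all measured condensin, cohesin and mitotic kinesin genes, and the 5 nearest genes; others illustrate a list and were chosen after their values were seen. Ratios were checked on simulated data with little noise and with changes planted in bright genes only. That check does not cover signals near the floor or the spread between probe sets. Python 3.11.15, numpy 2.4.6, pandas 2.3.3 and statsmodels 0.14.6 were used. Protein sequences were not used here.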

Additional observations from a re-analysis of the deposited data

How the results depend on the processing

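The count of 8 genes at least 2-fold lower in D351 stayed between 7 and 9 under all 10 other settings tried. These were quantile normalization, scaling to 1 median, loess with a span of 0.3, a floor at the 25th percentile (4.6) or the 75th (53.5), the median over probe sets, plain probe sets only, 1.5-fold and 3-fold rules, and a minimum difference equal to the floor. All 69 ratios of single genes under the 7 settings that give one were below 0, and 61 moved by less than 0.50, the SD of 1 probe set. The genes were chosen as lower in D351, and all 17 of their probe sets have a lower deposited value there. Another floor or choice of probe sets could therefore not make a ratio positive, and nothing is read from the shared sign. The floor at the 75th percentile left Kif14 unmeasured and took Esco2 to -0.85. The median of the 10 was -1.25 with that floor, which pulls in bounds by its construction, and -2.30 with plain probe sets. With the same floor, list medians were -0.57 (kinetochore), -0.59 (replication), -0.32 (G1 and quiescence) and 0.35 (transport kinesins). With the floor at the 25th percentile they were -0.96 (kinetochore), -0.84 (checkpoint) and -0.47 (spindle). The median over probe sets gave -0.14 (cohesin) and -0.31 (spindle), and the mean of a list 0.26 (transport kinesins) and -0.31 (spindle). Genes at the floor on both arrays gave -0.14 (cohesin), 0.22 (spindle) and -0.92 (replication). Apart from the floor and the restriction to plain probe sets, the cause was not tested. Spindle and transport kinesin medians therefore have no settled sign. No paired analysis was possible because each clone has 1 array.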
